A study of Homo sapiens with 12 samples.

Results

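The comparison described here is that of mtAsn-1 LNA with control LNA in MDA-MB-231, a human triple-negative breast cancer cell line. A locked nucleic acid (LNA) is a synthetic oligonucleotide whose sugars are held rigid by a bridge, so that it pairs tightly with complementary RNA. Its members were chosen by the treatment label of each library: 3 libraries of cells given mtAsn-1 LNA and 3 of cells given Control LNA, 6 of the 12 libraries of the series. Every culture was kept in medium with serum, received its LNA at 20 nM with a cationic lipid reagent and was harvested on day 2, so the controls carry an LNA and the transfection too. The other 6 libraries came from cells of the same line given the LNAs named mtAsn-2 and mtLys, 3 each, which share the statistical fit and otherwise serve the direct comparisons in the closing paragraphs. Libraries of untransfected cells were not analysed here. The labels do not say whether the 3 libraries of a group came from separate cultures, so a p-value here speaks of the spread from library to library, part or all of which may be technical.

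Mitochondria translate the few proteins of their own genome with their own set of tRNAs, and the tRNA that carries asparagine is transcribed from MT-TN. The LNA's name points to this tRNA, and the series' title speaks of a mitochondrial tRNA and metabolic transcription in the nucleus. A common response of nuclear genes to stress in mitochondria or to uncharged tRNA is the integrated stress response, in which kinases slow translation and raise the transcription factor ATF4, which then drives genes for amino acid synthesis, uptake and tRNA charging. The LNAs' own sequences were not used here. The tRNA is shown because its gene gives the LNA its name, with the GTT anticodon in capitals (hg38 chrM:5657-5729, minus strand, 73 bases, GENCODE v29 transcript).
MT-TN: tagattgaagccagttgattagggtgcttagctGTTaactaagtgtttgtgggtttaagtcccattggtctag

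Levels are given as counts-per-million (CPM), scaled by edgeR's TMM factors. Reads over MT-TN were too few to say whether its level moved. The control libraries held 3, 6 and 2 reads on it and the mtAsn-1 libraries 5, 2 and 2, so the groups overlapped. The rate with mtAsn-1 over that with control was 0.951, with a 95% interval of 0.348 to 2.52 that covers counting error only, and an exact two-sided permutation test gave p = 1.0 in a design that cannot go below 0.1. The library kit (TruSeq RNA Library Kit v2) is sold for polyadenylated RNA, and a mature tRNA is not polyadenylated, so these reads check neither the label nor the LNA's action. Rows for mitochondrial mRNAs were not analysed here. Of the mitochondrial tRNA and rRNA genes, 18 passed the filter on low counts and 2 were called: MT-TE (105, 110.1 and 89.6 CPM in the control libraries and 118, 126 and 157 CPM with mtAsn-1) and MT-TF. Both calls were lost under other settings (MT-TE under 10 of them, MT-TF under 4), so no direction is given for either.

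The 6 libraries compared held 17978825 to 31112975 counted reads each, and 16051 of 52859 gene rows had counts high enough to test. On the first principal component of the 6 libraries, which carried 63.1% of their variance, the control libraries lay between -34.0 and -28.9 and the mtAsn-1 libraries between 27.6 and 36.4. The second component (12.2%) set mtAsn-1 replicate 2 apart, at 25.5 against -19.1 and -9.93 for the other mtAsn-1 libraries, and counts that rest on this library are given without it below. Markers of the line were present: the summed level of 7 genes MDA-MB-231 cells are known to express was 7240 to 7490 CPM in control and 8270 to 8970 with mtAsn-1. Of these 7 genes, 4 were called higher and 1 lower. The luminal and epithelial genes known to be low or absent in the line summed to 107 to 111 and 118 to 122 CPM. Of these, 5 were tested, with 1 called higher and 2 lower. Leukocyte genes summed to 215 to 221 CPM in control and 289 to 317 with mtAsn-1, where CD68 and LAPTM5 were called higher (2 of 4 tested), CD3E had no read and PTPRC stayed at or under 0.343 CPM. Fibroblast genes summed to 63.0 to 72.4 and 41.2 to 45.1 CPM, with COL1A1 and PDGFRB called lower and DCN without a read. The labels name a single cell line for every library, so these sums are levels of genes and no measure of other cell types. What lay behind their differences was not tested.

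About as many genes were higher as lower with mtAsn-1, and most differences were small. With edgeR's quasi-likelihood test and Benjamini-Hochberg adjustment over all tested genes, 3901 genes (24.3%) were called higher and 3886 (24.2%) lower at an adjusted p under 0.05, and the median log2 fold change over all tested genes was -0.004. Of the called genes, 5582 (71.7%) differed by less than 1.5-fold. At least 2-fold higher were 358 genes (2.23%) and at least 2-fold lower 562 (3.5%), of which 92 and 101 had a mean level of at least 2 on the log2 CPM scale. Libraries did not overlap between the groups for 53.8% of tested genes. The largest rises and falls, the smallest p-values and the widest CPM differences named below were picked among genes without overlap. For these genes the absence of overlap was set by the choice and is no further result. Without mtAsn-1 replicate 2 the calls were 3594 higher and 3534 lower. Since 48.5% of all tested genes were called in one direction or the other, the share of a gene list that was called is read against 24.3% and 24.2% below, and a list near those shares is not a result about the list.

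The deepest fall among genes of at least moderate level was that of S100P, a calcium-binding protein expressed in many carcinomas. S100P (hg38 chr4:6693878-6697170, plus strand) stood at 19.6, 17.9 and 16.7 CPM in the control libraries and at 2.22, 1.72 and 1.76 CPM with mtAsn-1 (log2 fold change -3.26 ± 0.13, adjusted p = 6.9e-17). The groups were far apart and each was tight. BMF, a BH3-only protein that triggers apoptosis by binding the BCL2 family's survival members, followed (hg38 chr15:40087890-40108879, minus strand), with 59.3, 58.2 and 53.03 CPM in control and 9.903, 9.203 and 6.76 CPM with mtAsn-1 (log2 fold change -2.75 ± 0.098, adjusted p = 5.98e-16). Every control library of BMF lay far above every mtAsn-1 library. The orphan nuclear receptor NR4A1 (21.6, 20.2 and 15.6 against 3.695, 4.401 and 3.95 CPM, log2 fold change -2.27 ± 0.12, adjusted p = 5.43e-15) and the small GTPase RRAD (13.4, 14.95 and 9.57 against 3.01, 3.54 and 3.45 CPM, log2 fold change -1.95) fell without overlap. So did the water channel AQP1 (-1.80), the hair keratin KRT86 (-1.78), the purine synthesis enzyme ADSS1 (-1.77), the growth factor receptor FGFR3 (-1.67) and the transcription factor ATOH8 (-1.66, all log2 fold changes). ADM5, another of the 12 largest falls, shares 15.1% of its exon bases with CPT1C and KRT86 has near-identical keratin neighbours, so their reads may be split or shared.

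The largest rise among such genes was in EXOC4, a subunit of the exocyst, the complex that tethers secretory vesicles at the plasma membrane. EXOC4 (hg38 chr7:133253067-134067137, plus strand) had 14.8, 15.6 and 15.7 CPM in control and 74.1, 83.6 and 78.8 CPM with mtAsn-1 (log2 fold change 2.36 ± 0.062, adjusted p = 3.07e-21), with the groups wide apart. FHIT, a dinucleoside triphosphate hydrolase encoded at a common fragile site, went from 2.02, 1.92 and 1.98 to 7.54, 9.37 and 8.37 CPM (log2 fold change 2.09). CACNA2D1, an auxiliary subunit of voltage-gated calcium channels, went from 2.32, 2.54 and 2.73 to 9.76, 9.95 and 9.99 CPM (log2 fold change 1.98). In all 3 genes every mtAsn-1 library was above every control library. Tenascin C (TNC), a matrix glycoprotein of wounds and tumours, rose from 70.4, 68.01 and 73.3 to 229, 236 and 208 CPM (log2 fold change 1.67 ± 0.054, adjusted p = 1.24e-17). DNHD1, a dynein heavy chain relative (2.08), the phosphodiesterase PDE2A (1.57), the lysine methyltransferase SMYD3 (1.55) and SHISAL1 (1.99) rose as well on the log2 scale.

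**Figure D1:**
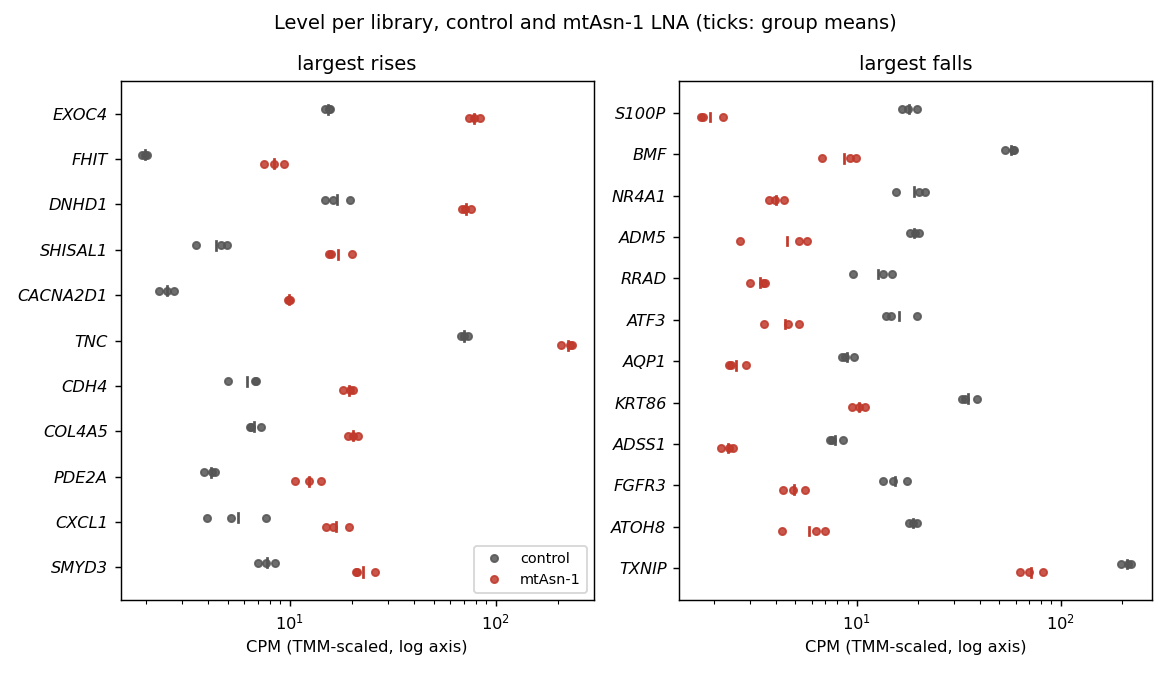
Level in each library (log axis, CPM) of 11 protein-coding genes with the largest rises and 12 with the largest falls, for control and mtAsn-1, with 3 points a group and ticks at the means. The points of a group lie close together. Absence of overlap between the groups was a condition for choosing the 23 genes. They run from S100P at 16.7 to 19.6 against 1.72 to 2.22 to EXOC4 at 14.8 to 15.7 against 74.1 to 83.6.

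Some genes with moderate folds were abundant and had p-values among the smallest in their direction. DAP, a death-associated protein, doubled from 186, 177 and 188 to 368, 376 and 360.3 CPM (log2 fold change 1.01 ± 0.04, adjusted p = 3.7e-17), and the semaphorin and VEGF co-receptor NRP1 went from 352, 345 and 371 to 668, 721 and 712 CPM (log2 fold change 0.98 ± 0.041, adjusted p = 1.01e-16). MKNK2, a kinase that phosphorylates the cap-binding factor eIF4E, fell from 446, 449 and 419.6 to 208, 214 and 199.5 CPM (log2 fold change -1.08 ± 0.042, adjusted p = 1.97e-17). The groups were separate for all of these. The calcium pump ATP2B1 (1.02) and the adaptor SHC3 (1.43) were among the 6 rises with the smallest p, and the splicing-related RSRP1 (-1.40) and the vesicle fusion protein VAMP2 (-1.35) among the 6 falls, all on the log2 scale. In absolute CPM, the wide differences were rises of the chromatin protein HMGA1 (1280, 1256 and 1212 to 2068, 2396 and 1937), integrin alpha 3 (ITGA3, 1177, 1132 and 1168 to 1835, 2163 and 1855) and fibronectin (FN1, 1102, 864 and 1133 to 1710, 1959 and 1658). Each group held apart here too, although mtAsn-1 replicate 2 was the highest library for all 3. On the other side, ferritin light chain (FTL) fell from 3191, 3244 and 3088 to 1949, 2131 and 1991 CPM, cyclin D1 (CCND1) from 1132, 1110 and 1027 to 743, 652 and 721 CPM, and the hair keratin KRT81 from 327, 327 and 305 to 126, 138 and 133 CPM. FTL and KRT81 have near-identical copies in the genome, and how the authors counted reads that fit several places is not stated.

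Several genes that promote apoptosis were lower beside BMF. Of 10 tested pro-apoptotic members of the BCL2 family, 5 were called lower and 2 higher (median log2 fold change -0.33), against 24.2% and 24.3% of all genes. BCL2L11, which encodes the BH3-only protein BIM, fell from 21.6, 22.5 and 20.6 to 10.99, 10.1 and 10.96 CPM (log2 fold change -1.01 ± 0.074, adjusted p = 6.7e-12). The BH3-only genes BBC3 (-0.82) and PMAIP1 (-0.54) also fell on the log2 scale. In contrast, BAX (0.28), a pore former of the mitochondrial outer membrane, and its relative BOK (0.38) rose, as log2 fold changes. Among the survival members, 1 of 4 was called higher, and MCL1 did not pass the test (log2 fold change -0.019, adjusted p = 0.755). Of 20 tested death receptor and caspase genes, 3 were higher and 7 lower.

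Immediate early genes, which cells switch on within minutes of growth factor or stress signals and which mostly encode transcription factors, were called lower more often than genes at large. Of 24 tested, 14 were lower and 3 higher (median log2 fold change -0.36). NR4A3, a close relative of NR4A1, fell from 2.91, 4.19 and 2.51 to 0.739, 0.286 and 0.359 CPM (log2 fold change -2.83 ± 0.27, adjusted p = 1.6e-09). ATF3, a stress-induced repressor, went from 14.6, 19.7 and 13.9 to 3.498, 5.201 and 4.599 CPM (log2 fold change -1.88 ± 0.14, adjusted p = 3.34e-10). FOSB (-1.28), FOSL2 (-0.57) and KLF4 (-0.68) fell as well, while JUN rose (0.55), so the AP-1 family of Fos and Jun proteins did not move one way. EGR1, a zinc finger factor, missed the threshold at a log2 fold change of 0.44. Without mtAsn-1 replicate 2 the list had 15 lower and 2 higher.

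The integrated stress response was lower at most of its transcription factors and at many of its target genes, while its sensor kinases were split. Of 17 tested sensors and factors, 12 were called lower and 2 higher (median log2 fold change -0.28). Among the factors, ATF4 itself stood at 549.9, 573 and 550.4 CPM in control and 455, 468 and 453 CPM with mtAsn-1 (log2 fold change -0.28 ± 0.036, adjusted p = 2e-07), with the groups apart, although 47.2% of its annotated exon bases are shared with MIEF1 on the same strand. The partner factor CEBPG (-0.60), the pseudokinase TRIB3, which feeds back on ATF4 (43.1, 44.6 and 40.5 to 27.4, 30.3 and 23.3 CPM, log2 fold change -0.68), and the chromatin-associated stress protein NUPR1 (15.9, 16.02 and 15.3 to 4.88, 7.55 and 4.53 CPM, log2 fold change -1.52) all fell. For NUPR1 the mtAsn-1 replicate 2 library was the highest of its group, and still under every control library. In the branch that reports mitochondrial stress, the protease OMA1 was lower (-0.39) and its substrate DELE1 higher (0.32), and the kinase that DELE1 activates, HRI (EIF2AK1), was lower (-0.19). The uncharged-tRNA sensor kinase GCN2 (EIF2AK4) was higher (0.18) and the double-stranded RNA sensor PKR (EIF2AK2) lower (-0.41), while the endoplasmic reticulum kinase PERK (EIF2AK3) missed the threshold at -0.15, all as log2 fold changes.

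Of 17 tested genes in a further list, of ATF4 target effectors, 14 were called lower and 2 higher (median log2 fold change -0.39). CHAC1, which degrades glutathione, fell from 16.99, 17.8 and 16.6 to 9.903, 9.77 and 8.41 CPM (log2 fold change -0.89 ± 0.082, adjusted p = 6.19e-10). GDF15, a secreted stress hormone of mitochondrial dysfunction, went from 38.3, 32.1 and 25.4 to 9.76, 12.4 and 11.6 CPM (log2 fold change -1.52 ± 0.12, adjusted p = 3.77e-08), and CTH, which makes cysteine, from 19.7, 19.9 and 19.5 to 8.18, 10.8 and 6.898 CPM (log2 fold change -1.22 ± 0.10, adjusted p = 2.19e-10). No mtAsn-1 library reached the control range in any of the 3. The tRNA exporter XPOT (-0.57) and the secreted glycoprotein STC2 (-0.80) fell, and the angiogenic factor VEGFA, which also answers to hypoxia, rose (0.43, log2 fold changes).

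**Figure D2:**
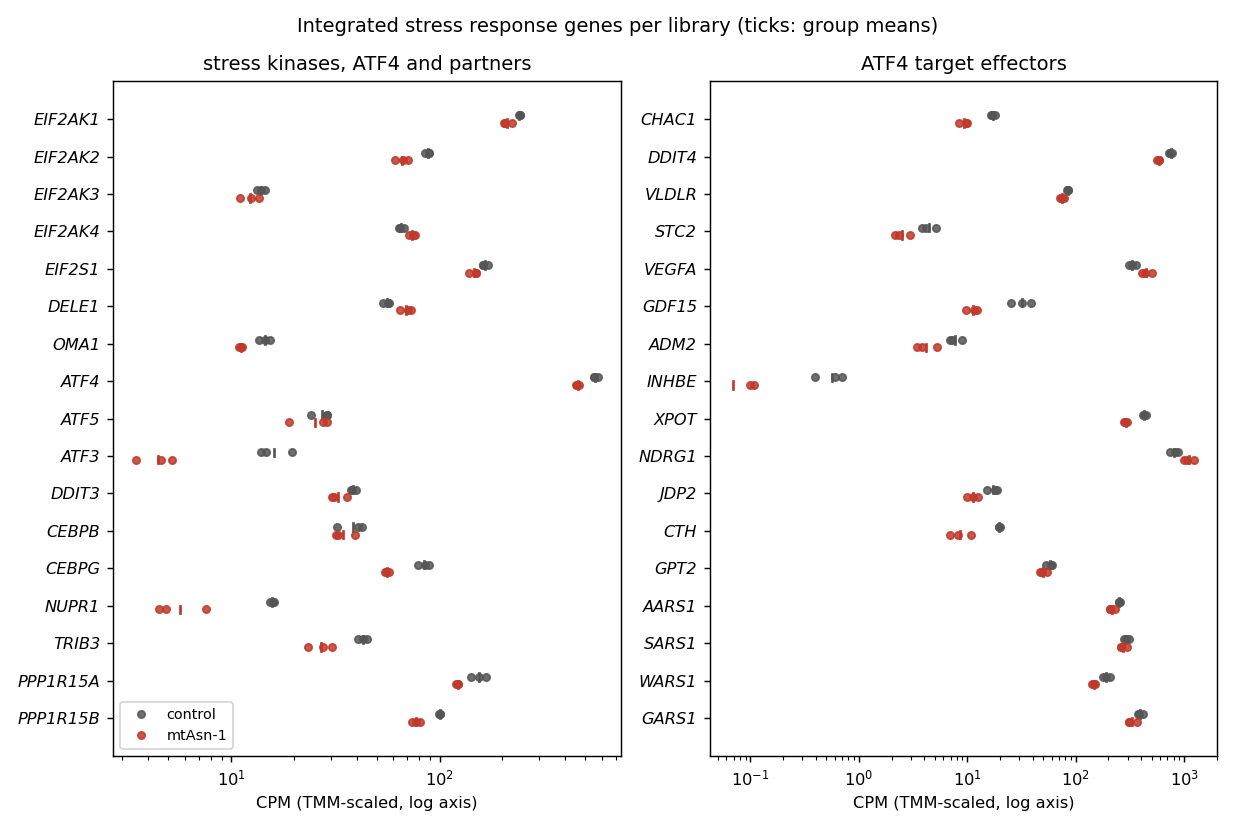
Level in each library (log axis, CPM) of integrated stress response sensors and factors and of ATF4 target effectors, for control and mtAsn-1, with 3 points a group. Most mtAsn-1 points lie under the control points of the same gene, as for GDF15 (9.76 to 12.4 against 25.4 to 38.3), while those of VEGFA and DELE1 lie above; 1 mtAsn-1 library has no INHBE read and is not drawn for that gene.

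Genes that make and carry amino acids were split. Of 11 tested serine, glycine and asparagine synthesis genes, 5 were called lower and 3 higher (median log2 fold change -0.13). PHGDH, the first enzyme of serine synthesis, fell from 30.03, 36.3 and 32.1 to 13.8, 15.2 and 13.9 CPM (log2 fold change -1.21 ± 0.079, adjusted p = 7.01e-13) and PSAT1, the next enzyme of that path, fell by 0.59 on the log2 scale. Asparagine synthetase (ASNS) was low in both groups, at 3.14, 2.83 and 2.89 CPM in control and 1.68, 2.34 and 1.51 CPM with mtAsn-1 (log2 fold change -0.72 ± 0.17, adjusted p = 0.00113), and 67.6% of its exon bases are shared with a read-through gene on the same strand, so this count is not the whole of ASNS. Of 19 amino acid transporters, 8 were lower and 6 higher (median log2 fold change -0.054). The heavy chain SLC3A2 (562, 621 and 514 to 293, 285 and 301 CPM) and its partner SLC7A5 (723, 822 and 737 to 446, 408 and 471 CPM), which together import leucine and other large neutral amino acids, both fell (log2 fold changes -0.95 and -0.78), while the lysosomal exporter SLC36A1 rose (0.63). Folate enzymes were split 3 to 3 over 11 tested, a share near the background.

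Enzymes that charge tRNAs in the cytosol were mostly lower by small amounts. Of 20 tested cytosolic aminoacyl-tRNA synthetases, 11 were called lower and 1 higher (median log2 fold change -0.12), and NARS1, which charges tRNA with asparagine, fell by 0.28 and WARS1, for tryptophan, fell by 0.39 on the log2 scale, while QARS1, for glutamine, rose (0.42). Of 15 mitochondrial synthetases, 4 were higher and 2 lower (median 0). FARS2, which charges mitochondrial tRNA with phenylalanine, went from 6.09, 5.52 and 6.52 to 17, 17.03 and 14.8 CPM (log2 fold change 1.44 ± 0.097, adjusted p = 1.49e-12), the only one past 2-fold. AARS2 rose too (0.48). NARS2, the mitochondrial enzyme for asparagine, did not pass the test (log2 fold change 0.14). Whether the 2 lists differ from each other was not tested.

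Promoters of amino acid stress genes were searched for the letters TGATGNAA, the core of the element that ATF4 binds with a C/EBP partner, on both strands, in RefSeq windows of 250 bases before to 50 after each start (GRCh38.p14). The element was in at least 1 window of 2.87% of the 11195 tested genes with a promoter entry, in 3 of 15 sensors and factors, 4 of 13 ATF4 effectors, 2 of 8 serine, glycine and asparagine genes, 6 of 17 transporters and 7 of 16 cytosolic synthetases. Over the 5 lists together 20 of 65 genes held it, of which 16 were called lower and 1 higher, and of the 45 without it 24 were lower and 8 higher. Over all 11195 genes, 89 of the 321 with the element were lower and 97 higher. Several of the lists were drawn up from known ATF4 targets, so their high share is no finding. These 4 promoters are shown because their genes fell and mark each step (factor, effector, synthesis, transport), 5′ to 3′ on the gene's strand, with the match in capitals; in CHAC1 and SLC3A2 it reads on the opposite strand.
ATF3: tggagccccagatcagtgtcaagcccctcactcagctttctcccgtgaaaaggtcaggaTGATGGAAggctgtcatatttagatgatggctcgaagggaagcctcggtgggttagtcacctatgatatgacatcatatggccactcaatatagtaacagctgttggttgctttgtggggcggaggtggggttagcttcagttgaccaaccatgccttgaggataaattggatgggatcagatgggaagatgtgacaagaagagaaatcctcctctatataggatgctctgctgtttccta
CHAC1: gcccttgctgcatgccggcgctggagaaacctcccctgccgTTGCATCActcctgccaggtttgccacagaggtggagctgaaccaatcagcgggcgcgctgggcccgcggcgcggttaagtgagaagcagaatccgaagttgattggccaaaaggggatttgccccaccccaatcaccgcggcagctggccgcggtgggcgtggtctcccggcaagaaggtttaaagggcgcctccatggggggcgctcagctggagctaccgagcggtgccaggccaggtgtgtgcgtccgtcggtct
ASNS: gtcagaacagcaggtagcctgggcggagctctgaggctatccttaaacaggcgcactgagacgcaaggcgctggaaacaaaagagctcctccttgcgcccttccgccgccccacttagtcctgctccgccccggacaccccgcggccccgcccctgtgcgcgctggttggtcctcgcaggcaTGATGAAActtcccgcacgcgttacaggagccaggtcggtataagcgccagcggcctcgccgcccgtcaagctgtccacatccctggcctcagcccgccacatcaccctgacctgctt
SLC3A2: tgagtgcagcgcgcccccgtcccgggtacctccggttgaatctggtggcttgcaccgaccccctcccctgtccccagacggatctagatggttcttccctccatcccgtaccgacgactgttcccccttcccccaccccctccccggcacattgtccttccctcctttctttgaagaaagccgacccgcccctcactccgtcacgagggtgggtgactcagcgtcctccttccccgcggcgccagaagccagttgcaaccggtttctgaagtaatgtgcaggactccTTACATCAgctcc
They are ATF3 (chr1:212565157-212565456, plus strand, match 191 bases before the start), CHAC1 (chr15:40953221-40953520, plus strand, 209 before), ASNS (chr7:97872359-97872658, minus strand, 68 before) and SLC3A2 (chr11:62881449-62881748, plus strand, 37 after). A match of letters is a description and no measure of binding.

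Lists of nuclear genes for mitochondrial gene expression and protein quality had similar numbers called higher and lower, apart from tRNA processing. Of 75 tested mitochondrial ribosomal protein genes, 17 were called higher and 13 lower, of 22 transcription and genome maintenance genes 6 and 7, and of 15 chaperones and proteases 5 and 5. Of 23 genes that cut, trim or modify mitochondrial tRNAs, 8 were lower and 1 higher (median log2 fold change -0.12). Among these the RNA methyltransferase NSUN2 (-0.27) and the demethylase ALKBH1 (-0.28) fell and PRORP, the nuclease subunit that cuts the 5′ ends of mitochondrial tRNAs, rose (0.21), all by small log2 amounts. TIMM44 (-0.48), which ties the import motor to the inner membrane, and CLPX (-0.47), the unfoldase of the matrix protease ClpXP, fell, and the matrix protease LONP1 rose (0.27).

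Respiratory chain genes differed by small amounts. Of 33 tested complex I genes, 11 were called higher and 6 lower, and of 37 nuclear genes of complexes II to V, 10 were higher, a share near the background, and 1 lower (SDHD, whose call was lost under other settings). UQCRQ, a complex III subunit (0.32), and ATP5PO, of the stalk of ATP synthase (0.29), rose, as did the complex I subunits NDUFA7 (0.41) and NDUFS4 (0.34), all under 1.5-fold on the log2 scale. Leaving out mtAsn-1 replicate 2 left 7 higher in complexes II to V. Of 29 citric acid cycle and pyruvate entry genes, 9 were higher and 9 lower. Pyruvate carboxylase (PC), which refills the cycle with oxaloacetate, doubled from 101, 86.4 and 101 to 203, 217 and 191 CPM (log2 fold change 1.08 ± 0.085, adjusted p = 2.83e-07), with the groups well apart.

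The glycolytic genes tested moved little. Of 21 tested, 10 were called higher and 3 lower (median log2 fold change 0.11), with rises in the phosphofructokinases PFKL (0.34) and PFKP (0.30) and falls in the glucose transporter SLC2A3 (-0.79) and aldolase A (ALDOA, -0.33). ALDOA shares 35.7% of its exon bases with LOC112694756 on the same strand, so this count may not be the whole of ALDOA. Lactate dehydrogenase A (LDHA) and the lactate carrier SLC16A1 had almost no counted reads and were not tested. Their levels are therefore not known here. The hypoxia genes outside glycolysis had 9 higher and 5 lower of 19, among them the carbonic anhydrase CA9 (higher, 0.91) and the prolyl hydroxylase EGLN3 (lower, -0.70). A clearer change was in TXNIP, an arrestin relative that blocks glucose uptake and thioredoxin and whose transcription follows glucose supply. TXNIP went from 197, 221 and 214 to 63.3, 81.3 and 70.1 CPM (log2 fold change -1.56 ± 0.098, adjusted p = 1.17e-07), so every control library had more than 2 times the level of any mtAsn-1 library. Its relatives ARRDC4 (-1.40) and ARRDC3 (-0.68) fell too, and 4 of 8 tested genes of that list were lower and 2 higher.

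Cholesterol synthesis was lower along most of the path. Of 19 tested enzymes, 14 were called lower and 1 higher (median log2 fold change -0.33). HMGCS1, which makes the precursor HMG-CoA, fell from 78.95, 93.6 and 87.9 to 53.2, 49.8 and 53.03 CPM (log2 fold change -0.74 ± 0.057, adjusted p = 1.79e-11), and the late enzyme SC5D (-0.74) fell too, while phosphomevalonate kinase (PMVK) rose (0.25). Genes of sterol sensing and uptake were split, 4 higher and 5 lower of 15, with a rise in NR1H3, the oxysterol receptor LXR alpha (0.71). In fatty acid metabolism 5 of 17 synthesis genes were higher and 3 lower, and 7 of 17 oxidation genes higher and 3 lower, including rises in ACADVL (0.80), the first enzyme of long-chain beta oxidation, and DECR1 (0.64), which handles unsaturated chains.

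Oxidative stress genes controlled by the transcription factor NRF2 were called lower in 14 and higher in 7 of 26. NQO1, a quinone reductase and a standard readout of NRF2, went from 429, 437 and 454 to 253, 236 and 266 CPM (log2 fold change -0.81 ± 0.046, adjusted p = 7.15e-14). Glutathione reductase (GSR, -0.79) and thioredoxin reductase (TXNRD1, -0.66) fell, but the aldo-keto reductase AKR1C1 (0.75) and the efflux pump ABCC3 (0.69), which also answer to NRF2, rose, all as log2 fold changes. NFE2L2, the gene of NRF2 itself, fell by 0.21 and its inhibitor's gene KEAP1 fell by 0.34 on the log2 scale.

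Most of the secreted inflammatory factors tested were called higher. Of 18 tested chemokine, interleukin and growth factor genes, 12 were called higher and the other 6 missed the threshold (median log2 fold change 0.88), and again 12 when mtAsn-1 replicate 2 was left out. CXCL8, a neutrophil attractant, rose from 10.6, 8.97 and 8.13 to 22.2, 30.7 and 25.5 CPM (log2 fold change 1.48 ± 0.15, adjusted p = 6.56e-06), CXCL1 from 7.66, 5.17 and 3.96 to 14.98, 19.4 and 16.2 CPM (log2 fold change 1.55 ± 0.17, adjusted p = 2.67e-06) and interleukin 1 beta (IL1B) from 0.859, 0.78 and 0.855 to 2.66, 4.46 and 2.66 CPM (log2 fold change 1.94 ± 0.22, adjusted p = 3.47e-08). The groups did not overlap, and mtAsn-1 replicate 2 was the highest library in each of the 3. The same library was highest for the colony-stimulating factor CSF2, at 27.8, 23.5 and 20.6 CPM in control and 41.5, 79.4 and 47.1 CPM with mtAsn-1 (log2 fold change 1.20 ± 0.24, adjusted p = 0.00303). CSF3 (1.48) rose too, while CSF1 missed the threshold (log2 fold change -0.13). CXCL1 and CXCL2 are related genes of similar sequence, so some reads may have been shared between them.

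Genes of NF-kB subunits and feedback were split, with 6 called higher and 5 lower of 18 tested. NF-kB can drive many inflammatory genes, but its activity and its part in these rises were not tested. The kinase IKBKB (0.67) and the adaptor TRAF1 (0.70) rose and the inhibitor NFKBIE fell (-0.47). In prostaglandin synthesis 4 of 10 tested genes were higher and 2 lower. PTGS2, the inducible cyclooxygenase, rose from 1.87, 1.92 and 1.71 to 4.98, 6.57 and 4.96 CPM (log2 fold change 1.55 ± 0.17, adjusted p = 1.23e-08), and thromboxane synthase (TBXAS1) rose by 0.95 on the log2 scale.

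Interferon-stimulated genes went mostly the other way. Of 37 tested, 19 were called lower and 7 higher (median log2 fold change -0.23). ISG15, a ubiquitin-like modifier, fell from 172, 196 and 159 to 78.1, 84.8 and 85.6 CPM (log2 fold change -1.09 ± 0.058, adjusted p = 3.57e-13), with no mtAsn-1 library near the control range. The membrane protein IFITM1 (-1.12), the RNA-binding IFIT2 (-0.83) and the factor IRF1 (-0.59) fell, while the factor STAT2 rose (0.28). Of 12 antigen presentation genes, 4 were higher and 1 lower. That 1 was TAPBP, whose reads may be split with copies of its row on alternate loci, so its value is not a level.

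Among genes of the extracellular matrix and of the receptors that hold cells to it, more were called higher than lower. Of 18 tested collagen genes, 12 were called higher and 3 lower (median log2 fold change 0.65). COL4A5, a basement membrane chain, rose from 7.25, 6.499 and 6.41 to 20.3, 21.5 and 19.3 CPM (log2 fold change 1.59 ± 0.082, adjusted p = 6.49e-15) and COL8A1, a short-chain network collagen, from 25.6, 26.5 and 25.8 to 61.5, 58.4 and 54.5 CPM (log2 fold change 1.16 ± 0.056, adjusted p = 1.76e-15). COL1A1, the main fibrillar collagen, fell from 60.1, 53.7 and 55.9 to 36.2, 33.7 and 33.2 CPM (log2 fold change -0.72 ± 0.062, adjusted p = 1.8e-10), so the chains named here did not move one way. Of 22 laminin and other matrix glycoprotein genes, 10 were higher and 3 lower (median 0.41), with a rise in the laminin chain LAMA4 (1.16) beside TNC and FN1. CEMIP, which breaks down hyaluronan, fell (-0.64).

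Of 15 integrin genes, 9 were called higher and 2 lower (median log2 fold change 0.34). ITGB8, which releases TGF-beta from its latent complex, rose (1.27), as did ITGA3 and the collagen receptor chain ITGA2 (0.82), whereas ITGB2, a chain of leukocyte integrins, fell from 47.2, 47.3 and 46.2 to 22.6, 21.4 and 22.1 CPM (log2 fold change -1.09 ± 0.058, adjusted p = 1.15e-14). Among 17 proteases and inhibitors of the matrix 11 were higher and 1 lower (median 0.45), among them the urokinase receptor PLAUR (0.80), tissue plasminogen activator PLAT (0.85) and the membrane collagenase MMP14 (0.60). The 1 lower was the inhibitor TIMP1 (-0.25).

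In the TGF-beta pathway, 11 of 20 tested genes were called lower and 4 higher (median log2 fold change -0.23). LTBP1, which anchors latent TGF-beta in the matrix, rose from 97.9, 91.5 and 97.9 to 193, 215 and 188 CPM (log2 fold change 1.05 ± 0.051, adjusted p = 6.02e-15). The transducer SMAD2 rose (0.59), while ID2, a target and inhibitor of differentiation, fell from 6.95, 6.92 and 6.31 to 2.51, 1.37 and 2.12 CPM (log2 fold change -1.73 ± 0.15, adjusted p = 2.08e-10) and the feedback genes SMAD7 (-0.64) and SKIL (-0.65) fell too. YAP and TEAD genes were split 7 higher to 6 lower of 17, with TEAD3 higher (0.91) and AMOTL2, an inhibitor of YAP, lower (-0.69). SNAI1, a repressor of epithelial genes, fell from 11.4, 11.1 and 11.7 to 5.47, 5.03 and 4.99 CPM (log2 fold change -1.14 ± 0.097, adjusted p = 1.33e-10), and of 19 genes of the epithelial to mesenchymal transition 4 were higher and 5 lower.

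**Figure D3:**
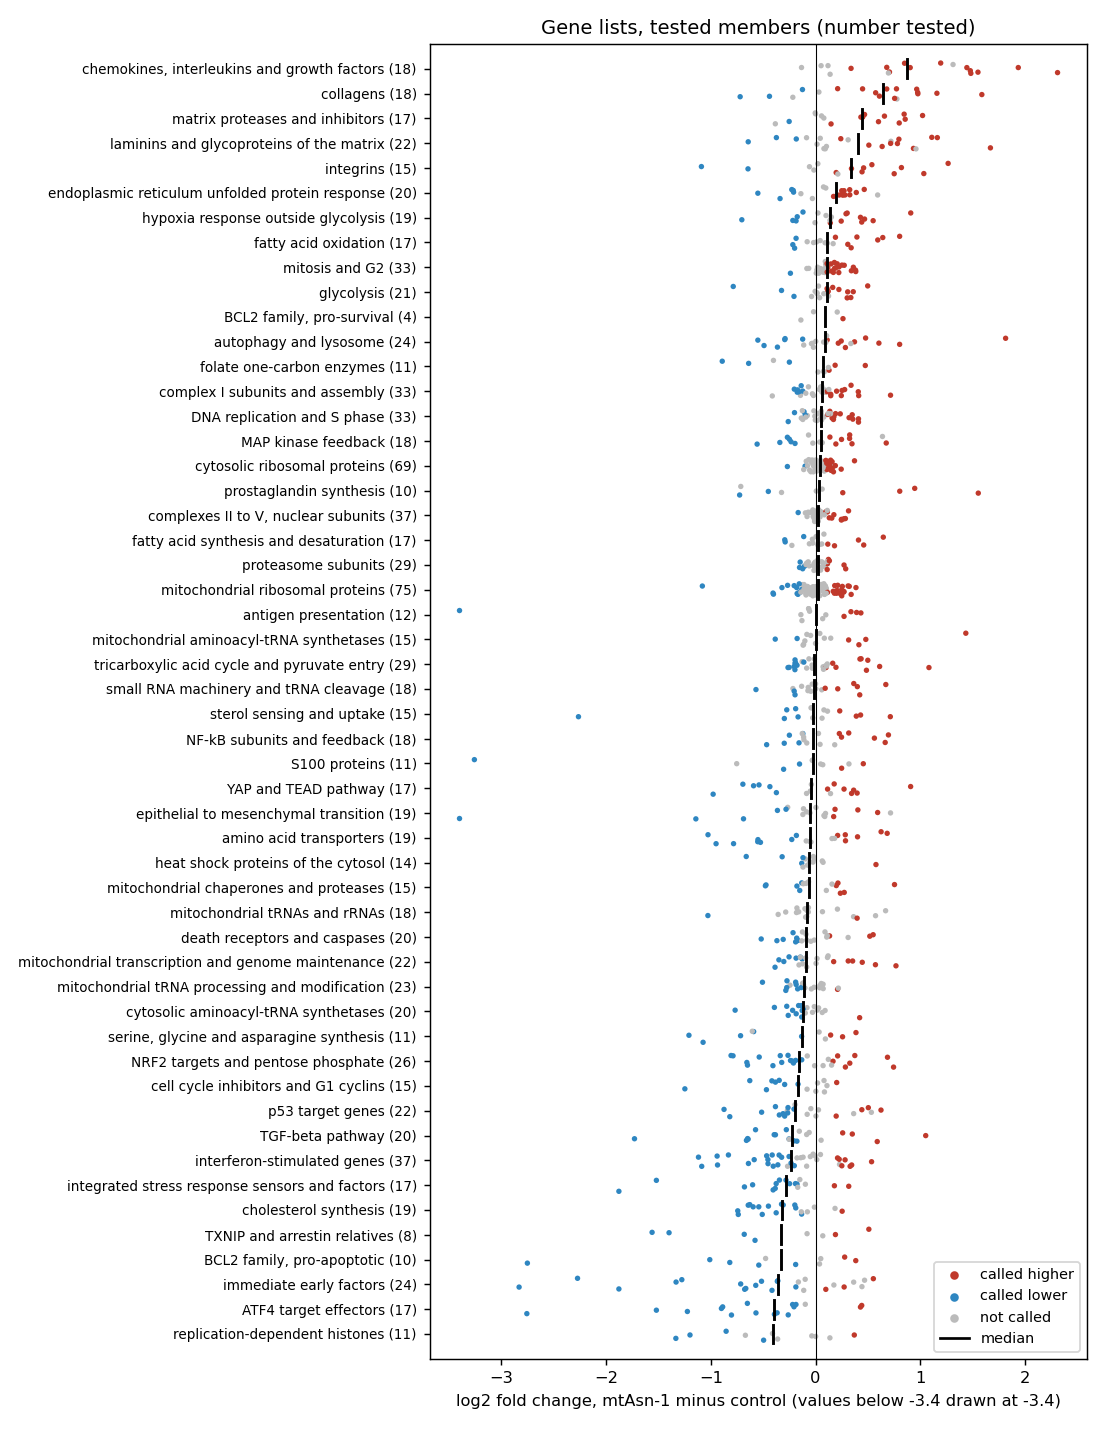
Log2 fold change of mtAsn-1 over control for each tested member of the gene lists (1 point a gene, bars at the medians; values under -3.4 are drawn at -3.4). Chemokines and interleukins (median 0.88), collagens (0.65) and matrix proteases (0.45) lie to the right of 0, while ATF4 effectors (-0.39), immediate early factors (-0.36) and cholesterol synthesis (-0.33) lie to the left.

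Proliferation genes were slightly higher. Of 33 tested genes of mitosis and G2, 18 were called higher and 1 lower (median log2 fold change 0.11), with MKI67, the Ki-67 antigen, up by 0.34 and the kinetochore motor CENPE by 0.36 on the log2 scale. Replication genes had 12 higher and 4 lower of 33, including the helicase loader CDC45 (0.41) and the polymerase subunit POLE (0.36). Of 15 cell cycle inhibitors and G1 cyclins, 8 were lower and 1 higher: beside CCND1, cyclin D2 (CCND2, -1.25) and the inhibitor CDKN1A (-0.38) fell, as log2 fold changes. MDA-MB-231 carries mutant p53, and of 22 genes that p53 activates in other cells, 10 were lower and 4 higher, with TP53INP1 lower (-0.87) and the repair factor DDB2 higher (0.63).

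In protein quality control, the unfolded protein response of the endoplasmic reticulum had 10 higher and 5 lower of 20 (median log2 fold change 0.20). Its chaperones HSPA5 (0.39) and PDIA4 (0.47) rose and its sensor ERN1 fell (-0.55). Of 24 autophagy and lysosome genes, 9 were higher, among them the lysosomal enzyme HEXA (0.61), and 6 lower, among them the initiating kinase ULK1 (-0.55). Cytosolic heat shock proteins (1 higher and 4 lower of 14) and proteasome subunits (6 and 4 of 29) were called no more often than genes at large. Ribosomal protein genes had 19 higher and 2 lower of 69, at a median of only 0.041. Of 18 genes of small RNA pathways and tRNA cleavage, 6 were higher and 3 lower, with rises in AGO2 (0.37), the slicing Argonaute, and in the exonuclease DIS3L2 (0.67). DIS3L2 shares 18.9% of its exon bases with LOC730069 on the same strand.

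Long genes were called higher more often than short ones. Of the 496 tested genes whose annotated span is 300 kb or over, 327 (65.9%) were higher with mtAsn-1 and 17 (3.43%) lower, with a median log2 fold change of 0.45. Between 100 and 300 kb, 41.3% of 2080 genes were higher and 14.4% lower. Under 10 kb the shares were 15.5% and 23.2% of 4640 genes, and the median was -0.062. EXOC4 (814 kb), FHIT (1504 kb) and SMYD3 (758 kb), named above for the size of their rise, are of the long class. LTBP1 (497 kb) and DIS3L2 (383 kb), named above as members of gene lists, are of this class too. With no filter on low counts the share higher at 300 kb and over was 42.0%. Within protein-coding genes of at least 2 on the mean log2 CPM scale the shares were 78.9% higher and 3.14% lower of 318 genes at 300 kb and over, and 26.7% and 29.9% of 1849 genes under 10 kb. Over 15927 genes, which are not independent replicates, the log10 of the span and the log2 fold change had a Pearson correlation of 0.213 and a Spearman correlation of 0.209. Genes with 1 exon block had 5.67% higher and 16.4% lower, and those with 16 or more 38.4% and 19.3%.

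**Figure D4:**
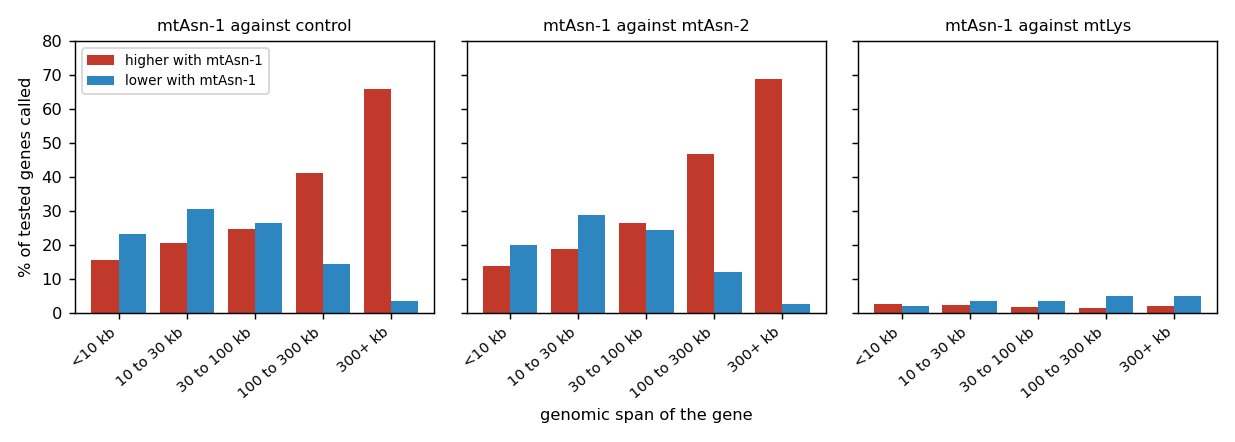
Percent of tested genes called higher and lower in 5 classes of annotated gene span (kb), for mtAsn-1 against control, against mtAsn-2 and against mtLys. The share called higher climbs from 15.5% under 10 kb to 65.9% at 300 kb and over against control and to 69.0% against mtAsn-2, but stays at 2.02% in the longest class against mtLys.

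Set directly against mtAsn-2 LNA, whose name points to the same tRNA, mtAsn-1 differed at nearly as many genes as against control. Higher with mtAsn-1 were 3949 genes (24.6%) and lower 3516 (21.9%), 7465 (46.5%) in all, with 347 (2.16%) and 340 (2.12%) at least 2-fold. Libraries did not overlap for 52.7% of genes, and the median size of a called difference was 0.354 on the log2 scale. Among genes that meet the naming rule, the largest rise was in PTPRF, a receptor tyrosine phosphatase, at 451, 502 and 432 CPM with mtAsn-1 and 89.4, 86.8 and 90.7 CPM with mtAsn-2 (log2 fold change 2.38 ± 0.056, adjusted p = 1.87e-19), while control stood between, at 321, 288 and 280.2 CPM. Higher with mtAsn-1 were also the prolyl isomerase PPIC (1.93), heparanase (HPSE, 1.90) and the desaturase SCD5 (1.76). NR4A1 was at 3.695, 4.401 and 3.95 CPM with mtAsn-1 and 14.7, 15 and 15.98 CPM with mtAsn-2 (log2 fold change -1.93 ± 0.12, adjusted p = 7.06e-14). The epidermal growth factor receptor ligand AREG was lower (55.6, 73.6 and 56.6 against 163, 176 and 170.1 CPM, log2 fold change -1.47 ± 0.098, adjusted p = 1.62e-07), and so were RRAD (-1.84), ATF3 (-1.38) and S100P (-1.26), whereas BMF was higher with mtAsn-1 than with mtAsn-2 (0.90). For NR4A1, RRAD and ATF3 the libraries given the 2 LNAs named for the same tRNA did not overlap. The choice of the largest differences required this, so it is no further result.

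Gene lists differed between these LNAs as well. Of 21 glycolysis genes, 18 were called higher with mtAsn-1 than with mtAsn-2 and 1 lower (median log2 difference 0.39), and of 19 other hypoxia genes 15 and 1 (median 0.43), against a background of 24.6% and 21.9%. Of 18 chemokines and interleukins 14 were lower and the other 4 missed the threshold (median -0.69), and of 37 interferon-stimulated genes 4 and 29 (median -0.39). Long genes were higher with mtAsn-1 here too, 69.0% of those of 300 kb and over.

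Against mtLys LNA, named for the lysine tRNA of mitochondria, far fewer genes differed: 845 (5.26%) were called, 341 (2.12%) higher with mtAsn-1 and 504 (3.14%) lower. At least 2-fold were 8 (0.0498%) and 54 (0.336%), and libraries did not overlap for 24.1% of genes. These counts rest on single libraries: without mtLys replicate 2 they were 120 and 284, without mtLys replicate 3 142 and 275, and without mtAsn-1 replicate 2 the higher count was 145. NUPR1 (4.88, 7.55 and 4.53 CPM with mtAsn-1, 2.83, 3.57 and 3.28 CPM with mtLys, log2 fold change 0.77 ± 0.15, adjusted p = 0.00176) and CXCL8 (22.2, 30.7 and 25.5 against 12.7, 17.7 and 15.8 CPM, log2 fold change 0.76 ± 0.14, adjusted p = 0.00903) were among the 8 largest rises. CEMIP (18.5, 16.6 and 20.1 against 40.7, 54.3 and 48.03 CPM, log2 fold change -1.36 ± 0.089, adjusted p = 1.48e-08) and ANGPTL2, a secreted angiopoietin relative (29.4, 36.5 and 31.7 against 58.2, 51.97 and 55.3 CPM, log2 fold change -0.77 ± 0.066, adjusted p = 1.5e-08), were among the 8 largest falls, and S100P was lower still with mtAsn-1 (-1.72). The groups did not overlap for CEMIP, ANGPTL2 and S100P, which the choice of the largest differences required. Of 69 cytosolic ribosomal protein genes, 33 were called higher with mtAsn-1 than with mtLys and 0 lower (median log2 difference 0.13). For 17 ATF4 effectors the counts were 5 and 0, and for 18 chemokines and interleukins 6 and 1. For 37 interferon-stimulated genes they were 0 and 12, and for 18 collagens 0 and 7. These list counts were not repeated with single libraries left out. EXOC4 stood at 79.9, 71.9 and 81.3 CPM with mtLys and did not pass the test against mtAsn-1 (log2 difference 0.021 ± 0.052, adjusted p = 0.882). The same held for NR4A1 (log2 difference 0.013, adjusted p = 0.976) and BMF (-0.25, adjusted p = 0.241). A p that misses the threshold does not show that these levels were alike. The mtAsn-1 and mtLys comparisons with control share the 3 control libraries, so only the direct comparison is given.

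**Figure D5:**
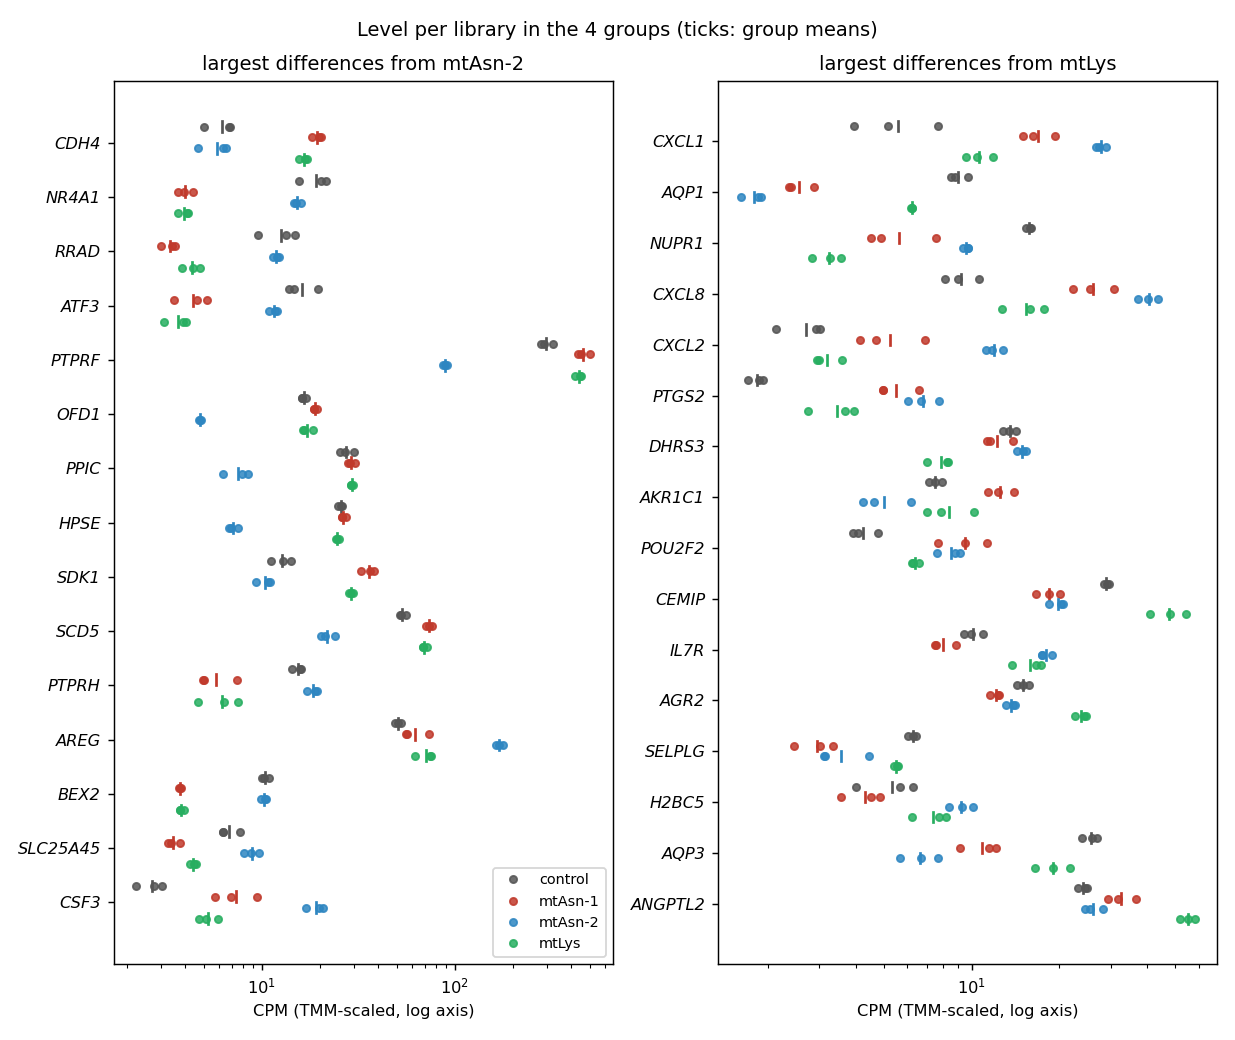
Level in each library (log axis, CPM) of genes with the largest differences of mtAsn-1 from mtAsn-2 and from mtLys, in all 4 groups, with 3 points a group. The mtAsn-1 points of PTPRF (432 to 502) lie above control and mtAsn-2 (86.8 to 90.7), and those of CEMIP lie under mtLys (40.7 to 54.3).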

How the data were processed

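RNA-seq libraries of MDA-MB-231 cells were compared between LNA treatments, 3 libraries a group. The deposited table holds raw whole-number counts per gene row, without normalization, for 12 libraries. Per the submitters' processing notes, FastQC, STAR 2.6.0a, featureCounts and DESeq2 were used with build hg38; the notes give no role for a tool, no strand setting and no rule for multi-mapped reads. The deposited counts were used as they are. Of the table's 52897 lines, 12 gene rows broken across lines and the 26 fragments of such lines were left out, so these 12 genes were not analysed, and 52859 gene rows remained.

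edgeR 4.0.16 (R 4.3.3, limma 3.58.1) was used for TMM factors, a filter on low counts (filterByExpr, minimum count 10, minimum total 15), 1 robust quasi-likelihood fit of all 12 libraries and Benjamini-Hochberg adjustment over the 16051 genes left, with a call at an adjusted p under 0.05. Standard errors were taken from the F statistic and the fold change. The common biological coefficient of variation was 0.0421. Library totals ran from 17978825 to 37708993 over the 12 libraries. Python 3.11.15, pandas 2.3.3, numpy 2.4.6, scipy 1.17.1 and matplotlib 3.10.9 were used for the rest. The fit was tested on simulated counts with known fold changes. DESeq2 1.42.0, RLE factors, other filters, thinned libraries, factors without mitochondrial genes, a fit of the compared groups alone, the replicate number as a block and each library left out were tried as alternatives.

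Named genes were the 12 largest rises and falls among called protein-coding genes without overlap between groups and at a log2 CPM of 2 or more on average, the 6 each with the smallest p and with the widest CPM difference, and for each of 53 gene lists the 2 rises and 2 falls with the smallest p and members that define the step. For the other LNAs they were the 8 largest rises and falls. NR4A3, EGR1, CSF1, CSF2 and some other members were added for their role in a step. The members and lists were chosen with earlier results of these data known. A few named genes are not reported here. Of 1200 listed genes, 1183 are in the table and 1082 were tested. Of those in the table, 68 have a copy on an alternate locus or patch, and 47 of these were not tested. A listed gene that was not tested is therefore not shown to be silent. Rows on alternate loci and patches hold copies of 280 tested genes, whose reads may be split. For MT-TN, reads were summed per group with an exact interval of the ratio.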

Additional observations from a re-analysis of the deposited data

How the results depend on the processing

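Of 247 named genes with a test, 242 were called, 225 of these were called under every alternative that tested them, 17 lost the call under 1 or more, and none reversed. A stricter filter (1 CPM or more in each library of 1 group, log2 CPM 2 or more on average) tested 10884 genes and left 99 genes at least 2-fold higher and 100 lower than in control, since low genes were removed. With it 79.6% of genes of 300 kb and over were higher and, under 10 kb, 25.5% were higher and 30.4% lower. With no filter these shares were 42.0%, 5.38% and 8.38%. Under 10 kb, DESeq2 gave 13.8% higher and 20.5% lower, and the compared groups alone 16.6% higher. Of 2120 list counts under alternatives, 92 moved by over 1.5 times.

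Leaving out 1 library at a time gave 3403 to 3943 genes higher and 3334 to 3955 lower than in control, with 306 to 407 and 547 to 626 at least 2-fold. Against mtAsn-2 the counts were 3445 to 4005 and 3035 to 3611, and against mtLys 120 to 395 and 275 to 527, where the mtLys count of lower genes was 328 without mtAsn-1 replicate 1. Genes of 300 kb and over were higher in 58.4% to 65.7% and lower in 3.16% to 3.77%, those under 10 kb in 13% to 15.2% and 19.2% to 23.2%, and the MT-TN ratio ran from 0.612 to 1.28.

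Deviations from the group means had correlations of 0.0412, -0.231 and 0.127 between same-numbered control and mtAsn-1 libraries. Between unlike-numbered ones they ran from -0.318 to 0.207. With 3 libraries a group, these values cannot tell whether the numbers pair the samples. With the replicate number as a block, the counts against control were 3757 higher and 3746 lower. At this depth a gene with few reads, such as MT-TN, cannot show a change.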
